A study of Homo sapiens with 59 samples.

Results

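The 10 genes described here encode translation elongation and initiation factors and closely related proteins whose mRNAs are known to begin with a 5′ terminal oligopyrimidine (TOP) tract. They are EEF1A1, EEF1B2, EEF1D, EEF1G, EEF2, EIF4B, EIF3F, PABPC1, TPT1 and NAP1L1, chosen by name from 18835 genes that were tested in at least 1 table. All 10 passed the filter on low values in each of the 7 tables. The cells were Jurkat, an established human T cell leukaemia line, and each of the 7 restricted groups was grown with 1 essential amino acid labelled 25% and collected at day 3. The restricted groups, with 5 RNA-seq libraries each, are 25% methionine, 25% phenylalanine, 25% valine, 25% leucine, 25% isoleucine, 25% tryptophan and 25% histidine. Histidine, methionine, phenylalanine and tryptophan have control groups of their own with 5 libraries each, and 1 BCAA control group of 4 libraries, numbered 1, 3, 4 and 5, serves isoleucine, leucine and valine together. The labels name no genetic change, the samples of all groups carry the same cell line and day, and each comparison asks how these mRNAs differed between restricted cells and their control. Values are normalised counts, estimated per gene and scaled by the authors within each table, so a level is compared only within its table and levels of different genes are not set against each other.

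A TOP mRNA starts with a C at the cap followed by a run of pyrimidines. The run makes its translation depend on mTORC1, the kinase complex that senses amino acids and growth factors: when mTORC1 is inactive, LARP1 binds the cap and the adjacent run, 4E-BP proteins hold back the cap-binding factor eIF4E, and the mRNA leaves polysomes. Ribosomal protein mRNAs form the largest class with this start, and the genes described here are known companions of that class. RNA-seq of total RNA measures the amount of such an mRNA and not its translation.

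The first transcribed bases are shown because the tract is the feature the genes share. The RefSeq promoter table of build GRCh38.p14 held 9 windows for 8 of the 10 genes, all but EEF1D and PABPC1. Each line gives 10 bases before the annotated start and 20 bases from it, 5′ to 3′, with the pyrimidine tract in capitals.
EEF1A1: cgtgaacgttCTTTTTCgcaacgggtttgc
EEF1B2, first start: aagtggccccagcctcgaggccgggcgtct
EEF1B2, second start: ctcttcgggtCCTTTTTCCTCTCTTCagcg
EEF1G: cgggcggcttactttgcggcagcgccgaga
EEF2: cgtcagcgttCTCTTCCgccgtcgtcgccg
EIF4B: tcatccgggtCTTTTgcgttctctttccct
EIF3F: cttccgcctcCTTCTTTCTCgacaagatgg
TPT1: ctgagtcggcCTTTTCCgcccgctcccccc
NAP1L1: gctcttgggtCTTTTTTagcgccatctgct
The windows lie at chr6:73521013-73521042 (minus strand) for EEF1A1, chr2:206159599-206159628 and chr2:206159885-206159914 (both plus) for EEF1B2, chr11:62573872-62573901 (minus) for EEF1G and chr19:3985444-3985473 (minus) for EEF2. Those of EIF4B, EIF3F, TPT1 and NAP1L1 lie at chr12:53006446-53006475 (plus), chr11:7987327-7987356 (plus), chr13:45341164-45341193 (minus) and chr12:76084666-76084695 (minus). The motif searched was a C followed by at least 4 bases that are each C or T, starting exactly at the annotated first base. It was present in 7 of the 9 windows, with tracts of 5 bases in EIF4B, 7 in EEF1A1, EEF2, TPT1 and NAP1L1, 10 in EIF3F and 16 at the second EEF1B2 start. The letters are absent from the annotated start of EEF1G and from the first EEF1B2 start. Of all 35116 promoter windows listed, 4.07% held the motif at the start, and of 78 windows of 63 ribosomal protein genes 60.3% did. Allowing the motif within 5 bases of the start raised the share of all windows to 21.1% on the sense strand and 16.3% on the other strand, and left the count for these genes at 7 and 0. None of these windows says which start Jurkat cells use.

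Libraries summed to between 14.9 and 20.5 M normalised counts, and the 10 genes together took 1.30% to 3.63% of a library. The summed mRNA of 79 ribosomal protein genes took 3.10% to 13.0%, and 25% phenylalanine 2, phenylalanine control 1, 25% valine 2 and BCAA control 1 had the highest share of their group. These 4 libraries, known from earlier results of these data and not set by a cutoff, are left out together below where libraries high in ribosomal protein mRNA are named. Histidine control 5 also stood high, at 8.66% against 6.63% to 6.86% in the other histidine controls, and is left out on its own. T cell markers were present in every library, with CD3E at 10605 to 20620 normalised counts. The B cell marker MS4A1 had no value above 0 in any library, and LYZ and EPCAM had a median of 0. A marker without a row in a table was counted as 0 here. The fibroblast marker COL1A1 ranged from 134 to 4358, the highest in histidine control 3, and was higher in 25% tryptophan, at 300.0 against 183 in controls (log2 fold change 0.72, adjusted p = 0.00104 in limma). Of 8 T cell markers, 2 rose and 3 fell with tryptophan, CD3D among them (-0.53), 2 rose and 2 fell with histidine, and 1 rose and 1 fell with methionine, where PTPRC rose by 1.16 on the log2 scale. With valine 0 rose and 1 fell, and in the other 3 comparisons none passed in limma. With libraries scaled to equal totals 4 rose and 1 fell with tryptophan, 3 rose and 0 fell with methionine, and 2 rose and 1 fell with valine. The part of these markers in the results was not tested. The labels do not tie the libraries within a group to independent cultures, so p-values measure the spread between libraries, which may be technical. In bulk RNA, fewer cells that express an mRNA and less of it per cell cannot be told apart.

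Most of these genes fell with methionine, phenylalanine and valine at 25%, and few rose in any comparison. Over the 70 tests of 10 genes in 7 comparisons, 37 were lower and 2 higher at an adjusted p below 0.05 (limma on log2(normalised count + 1), Benjamini-Hochberg over all genes of a table, two-sided). With methionine at 25%, 10 of 10 fell and 0 rose, where 25.4% of all genes tested fell and 27.8% rose. With phenylalanine at 25%, 9 of 10 fell and 0 rose, against 6.09% and 4.11% of all genes, and with valine at 25% 9 of 10 fell and 0 rose, against 7.36% and 5.13%. Histidine at 25% lowered 4 and raised 0 (12.3% and 15.6% of all genes), and tryptophan at 25% lowered 4 and raised 2 (27.7% and 23.6%). Leucine at 25% lowered 1 and raised 0, against 4.33% and 3.41% of all genes. With 1 library left out, all genes called ranged from 1103 (without 25% phenylalanine 4) to 2542 (without phenylalanine control 1) for phenylalanine, where 1736 were called with all libraries. They ranged from 1110 (without BCAA control 5) to 2657 (without BCAA control 1) for valine (2096 with all) and from 511 (without 25% leucine 3) to 1674 (without BCAA control 1) for leucine (1277 with all). Isoleucine at 25% moved none of the 10 and 0% of all genes in either direction in limma, with 872 genes but 0 of the 10 at an unadjusted p below 0.05. The median log2 fold change of the 10 was -1.42 for methionine, -1.12 for phenylalanine, -1.08 for valine, -0.27 for leucine, -0.14 for isoleucine, -0.11 for histidine and -0.10 for tryptophan, while that of all genes tested lay between -0.01 and 0.03. For tryptophan the median of the 10 turned with libraries scaled to equal totals, to 0.15 with 3 lower and 5 higher. The isoleucine, leucine and valine comparisons share their control libraries. Scaling libraries to equal totals instead moved the median of all genes to 0.15 in the methionine table, 0.15 in the phenylalanine table, 0.27 in the tryptophan table and 0.13 in the valine table. The share of called genes that were higher then became 62.6%, 67.0%, 71.0% and 63.7% in that order, against 52.2%, 40.3%, 45.9% and 41.1% as deposited. Differences between amino acids were not tested, since each table was scaled on its own.

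**Figure D1:**
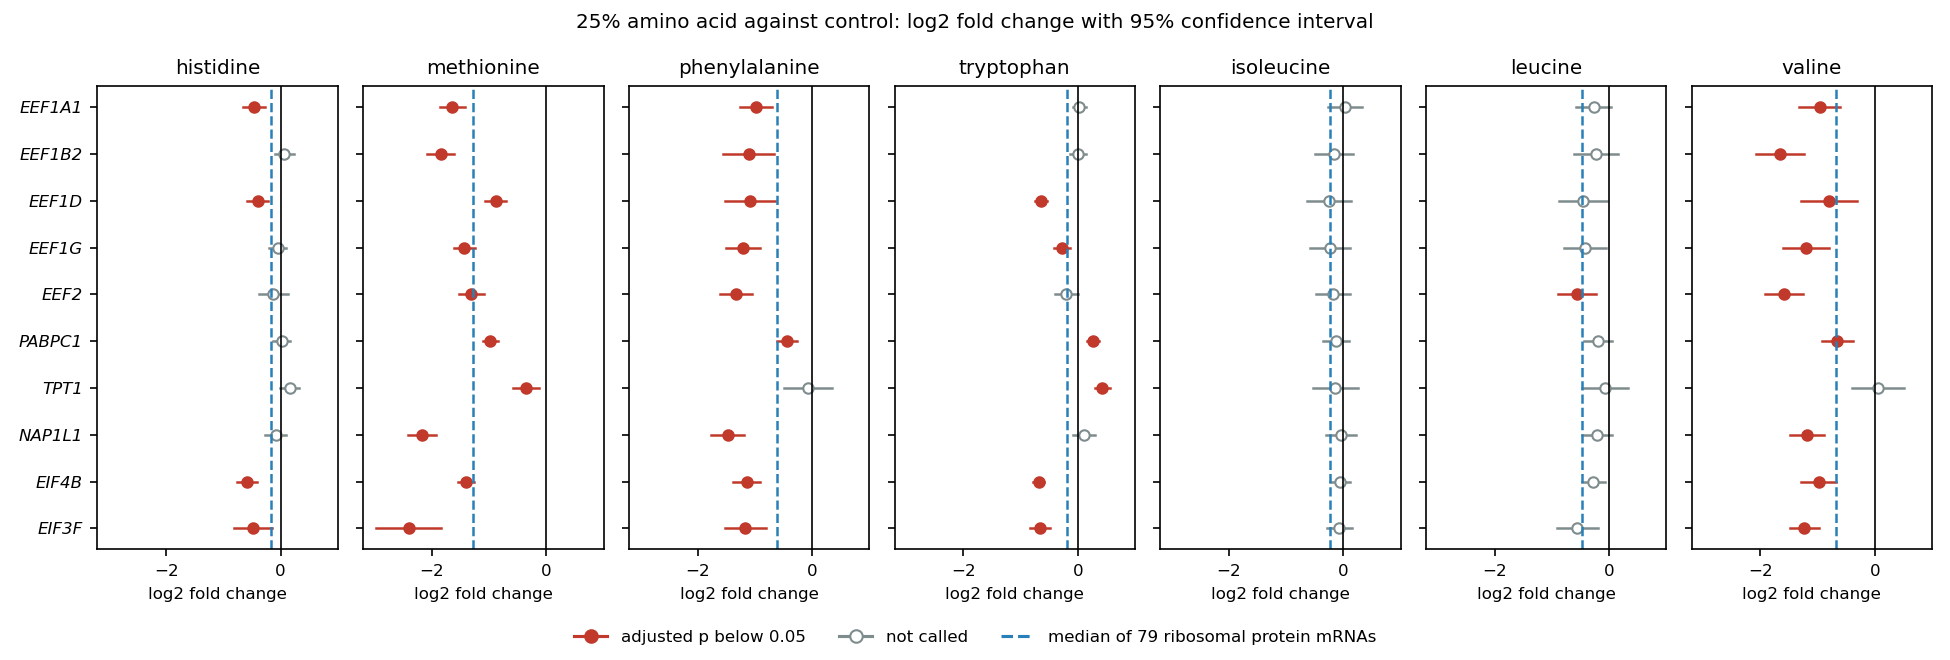
Log2 fold change of each gene (rows) with its 95% confidence interval in the 7 comparisons (panels), 25% amino acid minus control; filled red points have an adjusted p below 0.05, open grey points do not, and the dashed line is the median of 79 ribosomal protein mRNAs. All 10 points are filled and left of 0 for methionine, 9 of 10 for phenylalanine and valine, and none for isoleucine, and TPT1 lies furthest right in every panel except isoleucine.

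EEF1A1 encodes eEF1A, the GTPase that delivers aminoacyl-tRNA to the ribosome (chromosome 6, 73515750 to 73523797, GRCh38). Its normalised counts were 78817, 79413, 75689, 82249 and 81493 in the 25% methionine libraries, against 206376, 255215, 302144, 221001 and 265579 in the methionine controls. The highest restricted library lay far below the lowest control, and EEF1A1 fell 3.12-fold, to 79532 ± 2575 against 250063 ± 37858 (SD, n = 5 each; log2 fold change -1.64, SE 0.10, adjusted p = 1.43e-08 in limma). With phenylalanine at 25% it had 132716, 146394, 124382, 138439 and 132353, against 332135, 265927, 233054, 252226 and 256138 in phenylalanine controls, and these groups did not overlap either (log2 fold change -0.98, SE 0.13, adjusted p = 0.00049 in limma). The 25% valine libraries held 141024, 101698, 113519.9, 123699.5 and 125771, and the BCAA controls 298904, 219881, 200914 and 229269.7, of which control 1 was the highest (log2 fold change -0.96, SE 0.17, adjusted p = 0.00287 in limma). It also fell with histidine restriction, without overlap, with 149055 to 179744 in 25% histidine and 202463 to 254255 in control libraries (log2 fold change -0.46, SE 0.09, adjusted p = 0.00193 in limma). EEF1A1 did not pass the test for tryptophan (146318 ± 5642 in 25% tryptophan, 143224 ± 4985 in controls, SD, n = 5 each), isoleucine (log2 fold change 0.03) or leucine (-0.27). With libraries scaled to equal totals it was higher in 25% tryptophan (log2 fold change 0.28, adjusted p = 0.000191 in limma), a scaling that moved the median of all genes to 0.27 there.

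EEF1B2, EEF1D and EEF1G encode the subunits of eEF1B, which recharges eEF1A with GTP. EEF1B2 and EEF1D carry the exchange activity and EEF1G is the scaffold (EEF1B2 on chromosome 2, 206159585 to 206162928, EEF1D on chromosome 8, 143579697 to 143599541, and EEF1G on chromosome 11, 62559601 to 62574086). EEF1B2 fell 3.6-fold with methionine at 25%, to 2791, 2704, 2224, 2921 and 2776 against 9505, 8931, 11853, 7542 and 10831 in controls (log2 fold change -1.85, SE 0.11, adjusted p = 1.36e-08 in limma). With valine at 25% it fell 3.16-fold, to 4003, 3844, 3043, 2572 and 3018 against 15858, 8525, 8880.0 and 9264 in BCAA controls (log2 fold change -1.66, SE 0.19, adjusted p = 0.000203 in limma). Both sets of groups were separate, and BCAA control 1 stood above the other 3 controls. In the phenylalanine table the restricted libraries had 5332, 8846, 4608, 4936 and 4356, against 16169, 11185, 8483, 11715 and 11948 in controls. Library 2 of 25% phenylalanine exceeded the lowest control, and the other 4 lay below all controls (log2 fold change -1.10, SE 0.20, adjusted p = 0.00505 in limma). EEF1B2 did not pass for histidine (0.07), tryptophan (0.01), isoleucine (-0.16) or leucine (-0.23, all log2 fold changes). Scaling to equal totals made it higher in 25% tryptophan (log2 fold change 0.25, adjusted p = 0.00467 in limma), where the median of all genes was then 0.27.

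EEF1D passed in 5 comparisons, the 3 above and also histidine and tryptophan. The 25% tryptophan libraries held 2705, 2895, 2851, 2689 and 2760.1, against 4397, 4267, 4404, 4472 and 4188 in tryptophan controls (log2 fold change -0.64, SE 0.05, adjusted p = 6.76e-08 in limma). For histidine it stood at 4251, 3553, 4205, 4431 and 3645 in restricted libraries, against 4505, 5239, 5602, 5688 and 5483 in controls (log2 fold change -0.40, SE 0.08, adjusted p = 0.00276 in limma), again without overlap. Its fall with methionine, to 3121 ± 275 against 5754 ± 650.0 (SD, n = 5 each; log2 fold change -0.88), was smaller in size than those of EEF1B2 and EEF1G. With valine at 25%, values of 4162, 5684, 3054, 3519 and 3413 met 11238, 5854, 5364 and 5809 in BCAA controls, and restricted library 2 lay within the control range. That call (log2 fold change -0.80, SE 0.23, adjusted p = 0.0385 in limma) was lost when any of 7 of the 9 libraries was left out, with log2 fold changes between -0.94 and -0.55. For phenylalanine the log2 fold change was -1.08 (adjusted p = 0.0056 in limma).

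EEF1G fell in the methionine, phenylalanine, valine and tryptophan comparisons. Its normalised counts were 18114, 19396, 17426, 22267 and 17334 in 25% methionine, against 45885, 51985, 55819, 46315 and 54833 in controls (log2 fold change -1.43, SE 0.09, adjusted p = 1.37e-08 in limma), without overlap. With phenylalanine at 25% they were 23036, 33151, 20099, 21953 and 21838, against 58035, 53563, 49112, 60514 and 52881 in controls, and with valine at 25% 26575, 31014, 22848, 24231 and 25479, against 92079.8, 49095, 50561 and 55817 in BCAA controls. All restricted libraries of both lay below all controls, with log2 fold changes of -1.21 and -1.21 (adjusted p = 0.000197 and 0.00142 in limma). The fall with tryptophan was small, to 32030.1 ± 2973 against 38622 ± 1077 (SD, n = 5 each; log2 fold change -0.27, SE 0.07, adjusted p = 0.00276 in limma), and scaling to equal totals ended it (log2 fold change -0.03, adjusted p = 0.688). For histidine the values were 45874 ± 2744 in 25% libraries and 47540.0 ± 2552 in controls, a difference that did not pass.

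EEF2 encodes the GTPase that moves the ribosome along the mRNA after each peptide bond (chromosome 19, 3976056 to 3985469). With valine at 25% it had 36906, 40581, 37032, 42502 and 41197, against 156343, 114818, 95270.1 and 117445 in BCAA controls. The restricted libraries lay close together and below all controls, a 3.01-fold fall (log2 fold change -1.59, SE 0.15, adjusted p = 4.83e-05 in limma). In 25% phenylalanine EEF2 stood at 44057, 46936, 42309.5, 43055 and 48412, against 88109, 117471, 115989, 140933 and 108854 in controls, and in 25% methionine at 37557, 40286, 36842, 42875 and 31336, against 77484, 104159, 87950.0, 104209 and 95358. Neither pair of groups overlapped (log2 fold changes -1.33 and -1.31, adjusted p = 5.69e-05 and 1.38e-07 in limma). EEF2 was the 1 gene of the 10 that passed for leucine, with 67791, 86628, 66004, 79630.2 and 81969.8 in 25% leucine and 145037, 108996, 89728 and 110447 in BCAA controls (log2 fold change -0.56, SE 0.15, adjusted p = 0.043 in limma). The leucine groups did not overlap, but the call was lost when any of 6 of the 9 libraries was left out and under 4 other settings (a pseudocount of 5, no filter, a mean of at least 100, and scaling by the trimmed mean of M values, TMM), with adjusted p up to 0.114 in limma. A term for each replicate number in the fit lost the leucine call as well (log2 fold change -0.61, adjusted p = 0.0822 in limma). For tryptophan EEF2 did not pass (log2 fold change -0.20, SE 0.09, adjusted p = 0.0841 in limma), nor did it for histidine (-0.13) or isoleucine (-0.18). In the histidine controls EEF2 ranged from 66104 to 100802, wider than the 71453 to 83484 of 25% histidine.

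EIF4B, a cofactor of the helicase eIF4A and a known substrate of S6 kinases, passed in 5 comparisons (chromosome 12, 53006158 to 53042209). It had 8175, 8745, 8835, 8704 and 9769.9 in 25% methionine, against 21743, 23536, 23548, 23306 and 24545 in controls (log2 fold change -1.40, SE 0.06, adjusted p = 9.32e-10 in limma). With tryptophan at 25% it had 10104, 10567, 11083, 10983 and 10553, against 17084, 17352, 16845, 17443 and 16528 (log2 fold change -0.68, SE 0.05, adjusted p = 2.52e-08 in limma), and with histidine at 25% 12732, 11605, 12432, 13659 and 13966, against 16496, 20378, 20639, 21078 and 17812 (log2 fold change -0.58, SE 0.08, adjusted p = 0.000167 in limma). It was the lowest of the 10 genes by log2 fold change in those last 2 comparisons, and restricted and control libraries were separate in all 3. In 25% phenylalanine the values were 11045, 8507, 11318, 11179 and 11712, against 20927, 24699, 24222, 25232 and 22782 in controls, and in 25% valine 12280.2, 8290.3, 10899, 13088 and 12369, against 22529, 20562, 22932 and 22918 in BCAA controls. Groups were separate in both (log2 fold changes -1.14 and -0.98, adjusted p = 4.85e-05 and 0.000953 in limma). In these tables the 2 restricted libraries high in ribosomal protein mRNA, both numbered 2, were the lowest in EIF4B. For leucine the 25% libraries had 15384 to 18325 and the BCAA controls 19333 to 21391, groups that did not overlap but did not pass (log2 fold change -0.28, SE 0.09, adjusted p = 0.0888 in limma). Without BCAA control 1 the same difference had an adjusted p of 0.0438 in limma.

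EIF3F encodes a subunit of eIF3, the complex that recruits the small ribosomal subunit to mRNA (chromosome 11, 7970251 to 8001862). Its normalised counts were 417, 565, 539.7, 789 and 202 in 25% methionine and 2064, 2879, 2223, 2397 and 2717 in controls. This 5.3-fold fall came with restricted libraries that differed widely among themselves, yet all lay below the controls (log2 fold change -2.41, SE 0.27, adjusted p = 4.02e-06 in limma). The gene fell with valine, where it had 830.0, 937, 944, 883 and 1131 in 25% libraries, against 2244, 2073, 2133 and 2371 in BCAA controls (log2 fold change -1.23, SE 0.12, adjusted p = 4.99e-05 in limma). It fell with phenylalanine, to 763 to 1144 against 1517 to 2911 (log2 fold change -1.17), and with tryptophan, to 905 to 1146 against 1497 to 1752 (log2 fold change -0.65). None of these 3 pairs of groups overlapped. For histidine the values were 1221, 1175, 1503, 1163 and 1071 in restricted libraries and 1057, 1817, 1909.8, 2122 and 1848 in controls, with control 1 below all restricted libraries (log2 fold change -0.48, SE 0.16, adjusted p = 0.0339 in limma). That call was lost when any of 8 of the 10 libraries was left out and with TMM scaling, and without control 1 the log2 fold change was -0.66 (adjusted p = 0.000349 in limma). For leucine it had 954 to 1853 in 25% libraries and 1755 to 1988 in BCAA controls, which overlapped and did not pass (log2 fold change -0.55, SE 0.16, adjusted p = 0.0567 in limma).

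PABPC1 encodes the cytoplasmic protein that coats poly(A) tails and contacts eIF4G at the cap (chromosome 8, 100685816 to 100722809). It had the smallest spread between libraries of the 10 genes, with an SD of 0.06 on the log2 scale around group means over 40 libraries. With methionine at 25% it had 21279, 23169, 23480.5, 22453 and 21577, against 45006, 46187, 42624, 44278 and 42409 in controls, a 1.97-fold fall without overlap (log2 fold change -0.98, SE 0.06, adjusted p = 1.6e-08 in limma). It also fell with valine and phenylalanine, to 29129.5 ± 1156 against 46082 ± 6655 (SD, n = 5 and 4; log2 fold change -0.65) and to 34013 ± 685 against 46074 ± 1539 (SD, n = 5 each; log2 fold change -0.44). Tryptophan restriction raised it, to 33038, 33586, 34885, 37179 and 33409 against 27558, 29371, 28255, 28199.8 and 29294 in controls, again without overlap (log2 fold change 0.27, SE 0.05, adjusted p = 0.000388 in limma). In the histidine table its means were 38879.5 ± 1938 in 25% and 38411 ± 2630.4 in control libraries, a difference that did not pass (95% confidence interval of the log2 fold change -0.13 to 0.17).

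TPT1 encodes translationally controlled tumour protein, an abundant protein named for its translational control (chromosome 13, 45333471 to 45341370). It had the highest log2 fold change of the 10 genes in 6 of 7 comparisons, isoleucine excepted. With methionine at 25% it had 30238, 28335, 23361, 31124 and 30670.5, against 34873, 36058, 40029.7, 30128 and 43367 in controls. Control 4 lay within the restricted range, and the fall was 1.28-fold (log2 fold change -0.36, SE 0.10, adjusted p = 0.0104 in limma). Tryptophan restriction raised TPT1, to 31866, 34308, 33485, 32638 and 36974 against 27341, 24264, 25132, 26495 and 22355 in controls, without overlap (log2 fold change 0.43, SE 0.06, adjusted p = 5.01e-05 in limma). For phenylalanine it had 40691, 73026, 35896, 39781 and 37515 in 25% libraries and 58622, 46325, 38054, 42609 and 45564 in controls, and for valine 53435, 54919.8, 39739, 40714 and 45173 in 25% libraries and 73879, 35217, 39182 and 38340.1 in BCAA controls. In both tables the library high in ribosomal protein mRNA was the highest of its group, in restricted and control groups alike, and the difference did not pass (-0.07 with 95% confidence interval -0.48 to 0.35, and 0.06 with -0.40 to 0.52, log2 fold changes). Without those libraries the values were -0.16 for phenylalanine and 0.24 for valine, and neither passed.

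NAP1L1 encodes a histone chaperone that assembles nucleosomes (chromosome 12, 76036587 to 76085033). Its fall with methionine was 4.49-fold, to 3031, 3331, 3485, 3601 and 3811 against 13224, 15999, 20302, 12553 and 16396 in controls (log2 fold change -2.17, SE 0.11, adjusted p = 4.07e-09 in limma). With phenylalanine at 25% it had the lowest log2 fold change of the 10, at 4678, 5181, 4506, 4645 and 4353 against 18566, 12171, 11142, 11283 and 12799.8 in controls (log2 fold change -1.47, SE 0.13, adjusted p = 3.68e-05 in limma). With valine at 25% it had 5876, 4892, 4619, 5025 and 5246, against 14830.4, 9437, 11603 and 11300.2 in BCAA controls (log2 fold change -1.19, SE 0.14, adjusted p = 0.000197 in limma). Restricted libraries lay below all controls in these 3 tables. NAP1L1 did not pass for histidine, tryptophan, isoleucine or leucine, where log2 fold changes were -0.09, 0.11, -0.05 and -0.21. Scaling to equal totals made it higher in 25% tryptophan (log2 fold change 0.35, adjusted p = 0.00285 in limma), where the median of all genes was then 0.27.

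**Figure D2:**
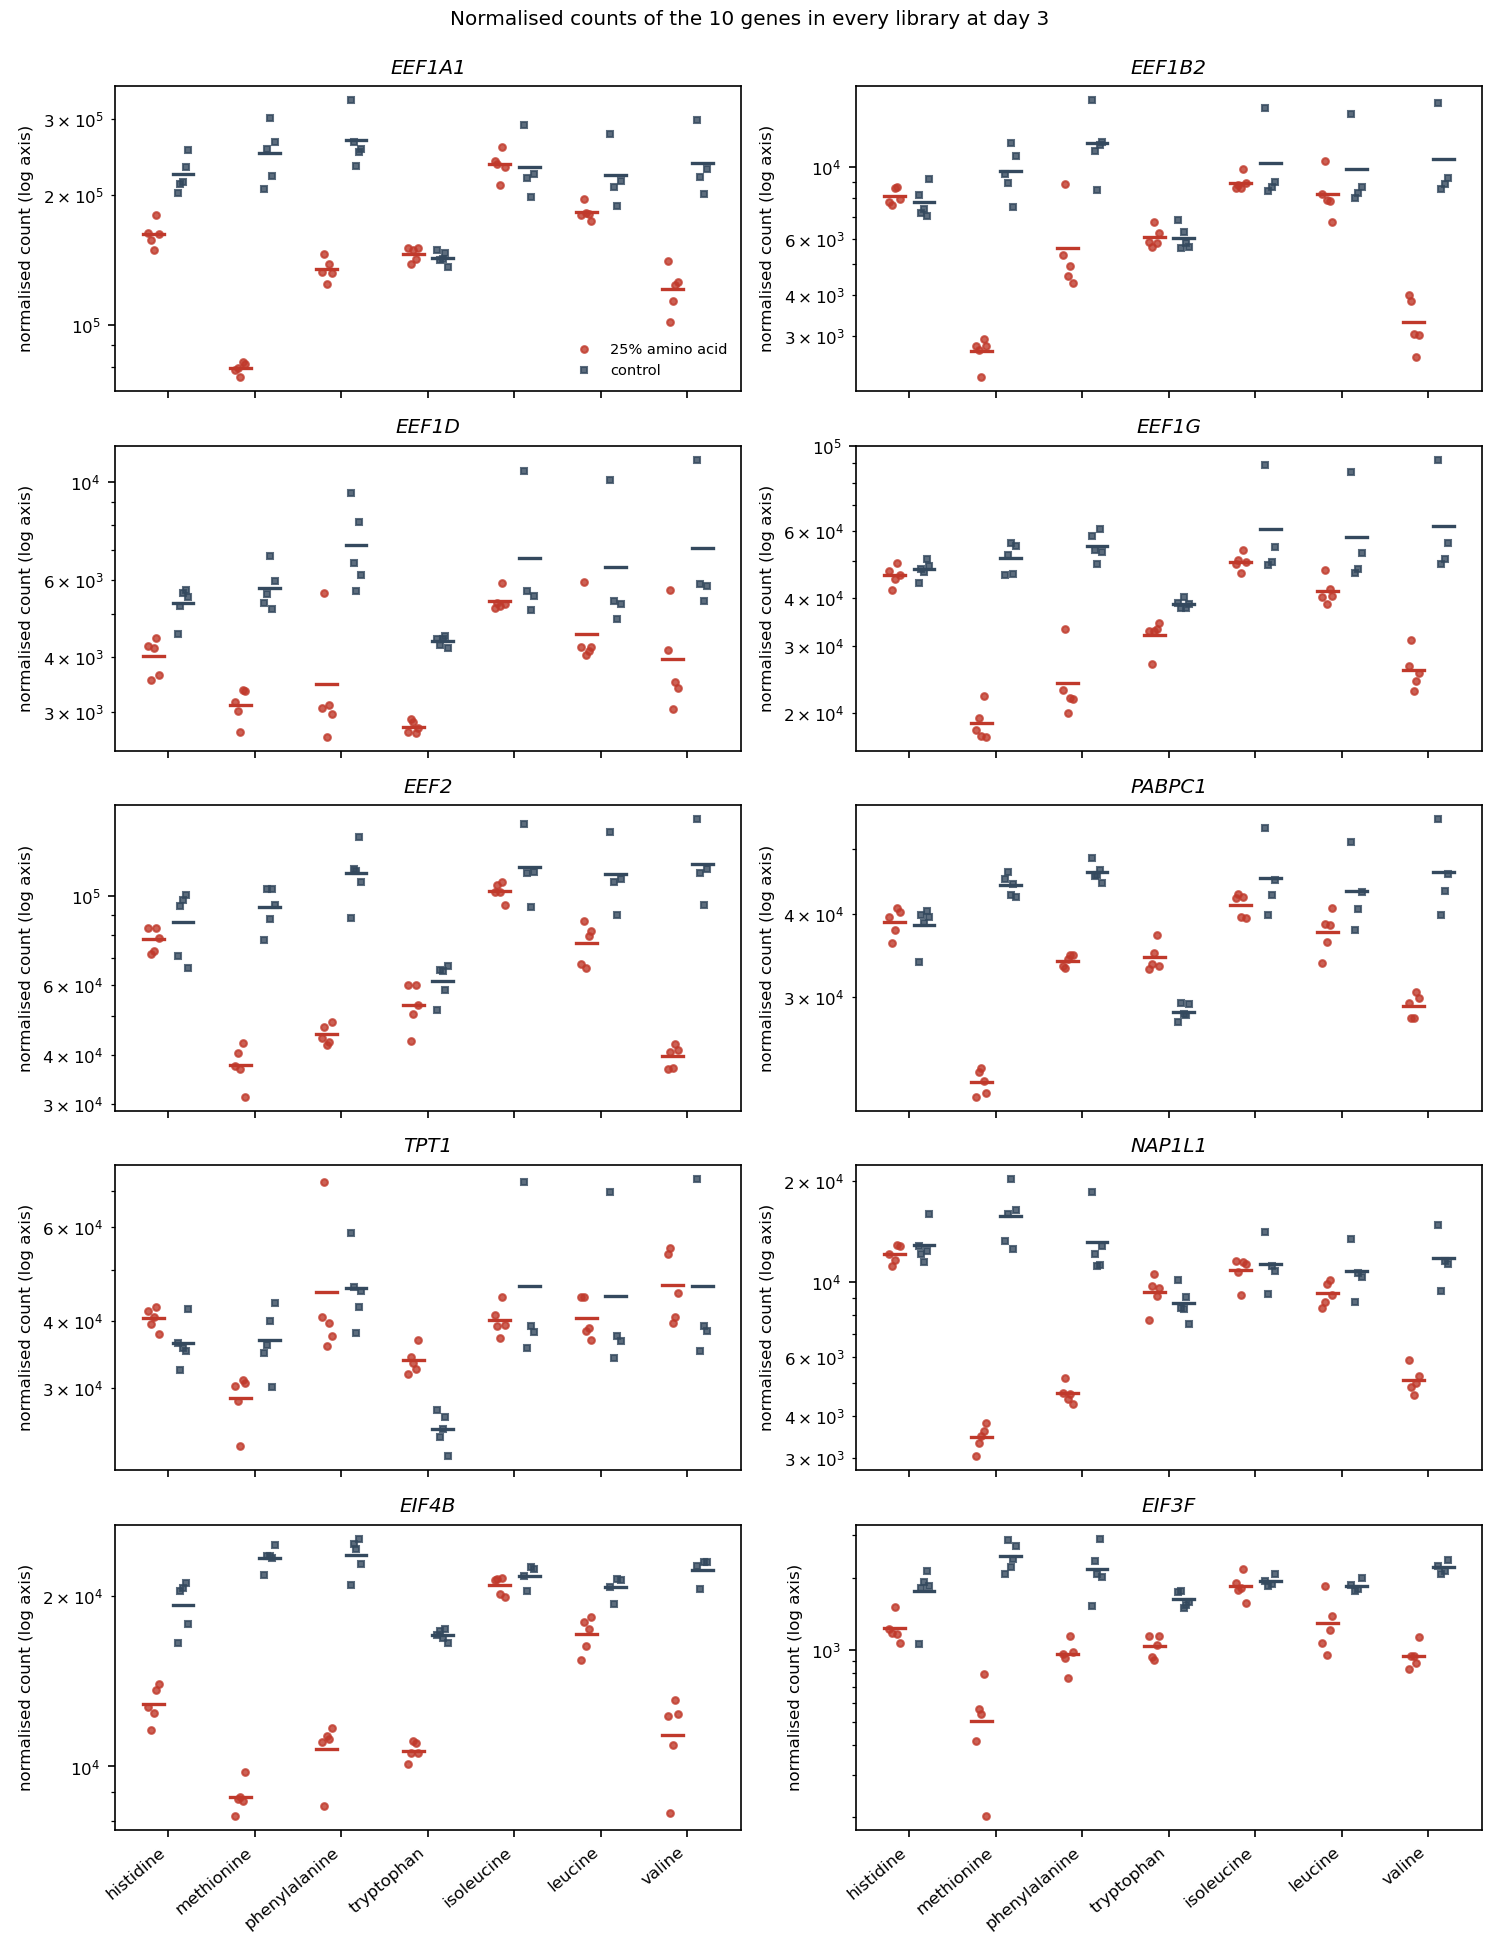
Normalised counts (log axes) of the 10 genes in every library, with 25% amino acid libraries as red circles left of their controls as dark squares in each comparison, and group means as bars; the BCAA controls appear in the isoleucine, leucine and valine columns. In the methionine column restricted and control points are apart for every gene except TPT1. The share of all genes whose groups are apart was not computed, and 25.4% of them were called lower and 27.8% higher there. In the branched-chain columns 1 control library, BCAA control 1, stands above the others for EEF1B2, EEF1D, EEF1G and TPT1.

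The balance between subunits was compared as log2 ratios within a library, in which a factor common to all its genes cancels. The deposited values do not differ by such a factor alone. In BCAA control 1 the log2 ratio of EEF1D to EEF1B2 was -0.525, -0.535 and -0.497 in the isoleucine, leucine and valine tables. The part of gene-specific scaling in the ratios was not tested. EEF1D relative to EEF1B2 moved in opposite directions in different comparisons. It was 0.18, 0.16, 0.28, 0.20 and 0.27 in 25% methionine, against -0.84, -0.68, -0.81, -0.55 and -0.86 in controls, a difference of 0.97. In 25% valine it was 0.06, 0.56, 0.01, 0.45 and 0.18, against -0.50, -0.54, -0.73 and -0.67 in BCAA controls, a difference of 0.86. Restricted libraries lay above all controls in both tables. With tryptophan at 25% the ratio was -1.11, -0.97, -1.25, -1.11 and -1.18, against -0.64, -0.40, -0.51, -0.38 and -0.44 in controls (-0.65), and for histidine the restricted mean was -1.02 ± 0.10 against -0.56 ± 0.24 in controls (SD, n = 5 each; -0.47). Restricted libraries lay below all controls in these 2 tables. Each of the 4 differences had the smallest p the design allows (0.00794, exact permutation test, two-sided) and an adjusted p of 0.0247 over 28 tests of 4 ratios in 7 comparisons. The phenylalanine ratios overlapped, with a difference of 0.03 (exact permutation p = 0.762).

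EEF1D and EEF1B2 were also each set against the scaffold EEF1G, in ratios that are not independent of the ratio above. EEF1D relative to EEF1G was higher in 25% methionine by 0.55 and in 25% valine by 0.41 on the log2 scale, and in 25% histidine and 25% tryptophan the difference from controls was -0.35 and -0.37, each with an adjusted p of 0.0247 (exact permutation test) and no overlap. That ratio did not pass for phenylalanine (0.13), leucine (-0.03) or isoleucine (-0.02). EEF1B2 relative to EEF1G differed by -0.42 for methionine (adjusted p = 0.0247), -0.45 for valine, 0.28 for tryptophan and 0.08 for isoleucine (each adjusted p = 0.0296, exact permutation test). It did not pass for histidine (0.12), phenylalanine (0.11) or leucine (0.20). For methionine, valine and tryptophan the exchange subunits thus lay on opposite sides of EEF1G. Of the elongation GTPases, EEF2 relative to EEF1A1 differed by -0.63 for valine and -0.29 for leucine without overlap, and by 0.33 for histidine with overlap (each adjusted p = 0.0296, exact permutation test). The isoleucine difference was -0.21 (adjusted p = 0.0417), and those for methionine (0.33), phenylalanine (-0.35) and tryptophan (-0.23) did not pass. Leaving out 1 library also raises the smallest p the test can give for isoleucine, leucine and valine. For histidine, methionine, phenylalanine and tryptophan that smallest p stays at 0.00794 (exact permutation test). The isoleucine calls of both ratios were lost without any 1 library, that of EEF2 to EEF1A1 for leucine held in 1 of 9 such tests, and for valine EEF1D to EEF1B2 held in 4 of 9, EEF2 to EEF1A1 in 4, EEF1D to EEF1G in 2 and EEF1B2 to EEF1G in 1. The histidine call of EEF2 to EEF1A1 held in 5 of 10, and the other calls for histidine, methionine and tryptophan held in 10 of 10.

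**Figure D3:**
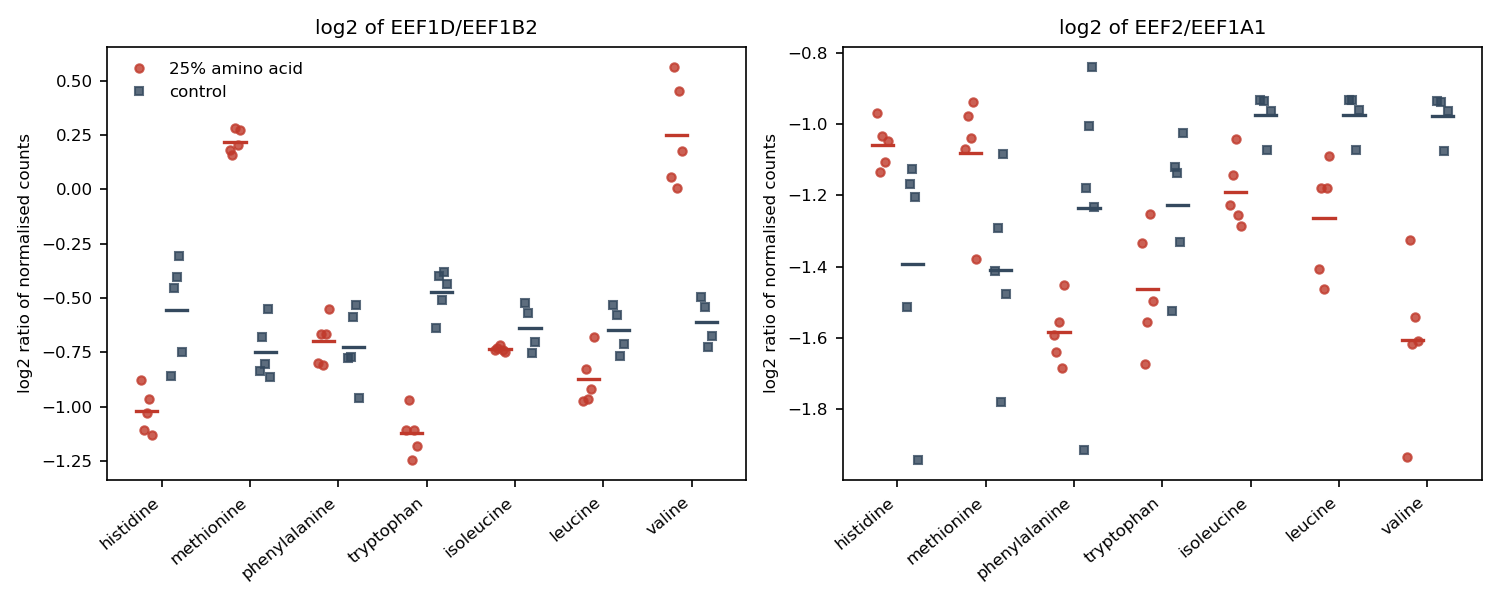
Log2 ratio of EEF1D to EEF1B2 (left) and of EEF2 to EEF1A1 (right) in every library, with 25% amino acid libraries as red circles left of their controls as dark squares and bars at group means. For EEF1D to EEF1B2 the restricted libraries lie above all controls for methionine and valine and below all controls for histidine and tryptophan, and for EEF2 to EEF1A1 they lie below all controls for leucine and valine.

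Ribosomal protein mRNAs, the main TOP class, moved in the same comparisons. Their list fell by a median log2 fold change of 1.27 for methionine (78 of 79 lower), where the 10 genes had a median of -1.42. The list medians were -0.68 for valine (27 lower), -0.61 for phenylalanine (32 lower), -0.47 for leucine (15 lower), -0.24 for isoleucine (0 lower), -0.18 for tryptophan (37 lower, 6 higher) and -0.16 for histidine (31 lower, 2 higher). With equal totals the tryptophan list turned, to a median of 0.06 with 21 lower and 30 higher, and the other list medians kept their sign. The 10 genes were also tested relative to the summed ribosomal protein mRNA of each library, in the same limma fit across all genes. The median of all genes tested on this scale was 1.29 for methionine, 0.65 for phenylalanine, 0.59 for valine, 0.43 for leucine, 0.25 for isoleucine, 0.22 for tryptophan and 0.20 for histidine. The medians of the 10 genes were -0.14, -0.50 and -0.51 in the first 3 of these, 0.16 for leucine, 0.12 for isoleucine, 0.09 for tryptophan and 0.10 for histidine.

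With methionine at 25%, 4 of the 10 were lower relative to ribosomal protein mRNA and 3 higher, where 2.18% of all genes were lower and 79% higher. Those lower were EIF3F (-1.13, adjusted p = 0.000824), NAP1L1 (-0.89), EEF1B2 (-0.57) and EEF1A1 (-0.37), and those higher TPT1 (0.92, SE 0.08, adjusted p = 2.39e-08), EEF1D (0.39) and PABPC1 (0.30), all relative log2 fold changes in limma. EEF2, EEF1G and EIF4B did not pass relative to the ribosomal protein sum, at -0.04, -0.16 and -0.13. For valine 4 were lower and 1 higher (0.877% and 20.3% of all genes): EEF1B2 (-1.08), EEF2 (-1.01), EEF1G (-0.63) and NAP1L1 (-0.61) against TPT1 (0.64, adjusted p = 0.00489 in limma). For phenylalanine 4 were lower and 1 higher (0.599% and 23.2% of all genes): NAP1L1 (-0.85), EEF1G (-0.59), EEF1B2 (-0.48) and EEF1D (-0.46) against TPT1 (0.55, adjusted p = 0.011 in limma). Without the libraries high in ribosomal protein mRNA the counts became 8 lower and 2 higher for phenylalanine, where 1.94% of all genes were then lower and 68.7% higher, and 8 lower and 1 higher for valine, where 2.70% and 38.5% were. When single libraries were left out, EEF1B2, EEF1D and EEF1G for phenylalanine kept their calls in 3, 2 and 3 of 10 tests and NAP1L1 for valine in 1 of 9. A term for each replicate number in the fit left 0 lower and 0 higher for phenylalanine, with TPT1 at an adjusted p of 0.062 in limma.

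For tryptophan 3 were lower relative to the ribosomal protein sum, EIF4B (-0.49), EIF3F (-0.46) and EEF1D (-0.45), where 18.4% of all genes were. On this scale 5 were higher, TPT1 (0.62), PABPC1 (0.46), NAP1L1 (0.30), EEF1A1 (0.22) and EEF1B2 (0.20), where 35.9% of all genes were. For histidine EIF4B (-0.38) and EEF1A1 (-0.26) were lower and TPT1 (0.36) and EEF1B2 (0.27) higher, where 5.34% and 24.3% of all genes were. With single libraries left out, EEF1A1 for histidine kept its call in 1 of 10 tests and EIF4B in 4. Without histidine control 5, 3 of the 10 were lower and 3 higher for histidine, where 7.25% and 25.4% of all genes were, and EEF1A1 (-0.29) and EIF4B (-0.48) kept their calls. TPT1 was higher relative to ribosomal protein mRNA in 5 comparisons, the ones in which 20.3% to 79% of all genes were also called higher. As deposited, TPT1 fell with methionine (-0.36), rose with tryptophan (0.43) and did not pass for histidine (0.16), phenylalanine (-0.07) or valine (0.06, all log2 fold changes). For leucine 0 of 10 passed in either direction (0.17% of all genes lower and 0.673% higher), and for isoleucine 0 of 10 and 0% of all genes passed in limma, with TPT1 at 0.36 and 0.11 (unadjusted p = 0.00737 and 0.249).

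**Figure D4:**
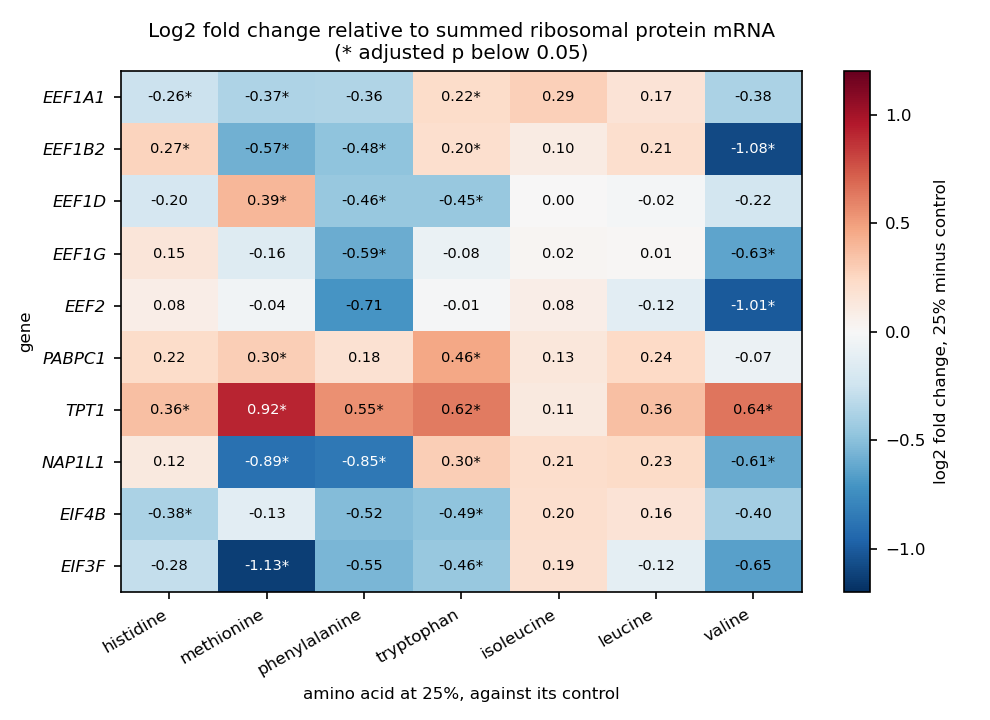
Log2 fold change of each gene relative to the summed mRNA of 79 ribosomal protein genes, 25% amino acid minus control, with genes as rows, comparisons as columns and an asterisk where the adjusted p is below 0.05. TPT1 is marked and above 0 in 5 columns, while EEF1B2 is marked in 5 columns with 3 values below 0 and 2 above.

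Within groups, the genes varied between libraries in different ways. Deviations from the group mean were taken on the log2 scale over the 40 libraries of the histidine, methionine, phenylalanine and tryptophan tables, 8 groups with their own mean each, so libraries share their table's scaling. Over the 45 pairs of the 10 genes the median correlation of these deviations was 0.14 and 16 pairs were negative, with extremes of 0.92 for EEF1B2 with TPT1 and -0.55 for EEF1B2 with EIF4B, given as descriptions. Deviations of EEF1B2 followed the median deviation of ribosomal protein mRNA (Pearson's r = 0.92, Spearman's rho = 0.82), and so did those of TPT1 (r = 0.92, rho = 0.79). Both had p = 1e-05, the smallest that 100000 permutations within groups can give, and 2.5e-05 adjusted over 10 genes. Without 25% phenylalanine 2 and phenylalanine control 1, the libraries farthest from the median, r was 0.86 and 0.85. EEF1A1, EEF1D, EEF1G and NAP1L1 had r between 0.66 and 0.85 (permutation p adjusted at most 0.000117) and between 0.62 and 0.74 without those 2 libraries. EEF2 (r = -0.21), PABPC1 (0.02) and EIF3F (-0.05) had no such relation that passed the permutation test. For EIF4B r was -0.54 (rho = -0.29, permutation p = 0.0262 for r and 0.103 for rho), and it rests on the 2 libraries, since r was -0.16 without them. Among 15764 genes the 5 whose deviations were most like the mean of the 10 were RPL3 (r = 0.89), RPS4X (0.88), RPL12 (0.88), GAPDH (0.87) and TUBA1B (0.87) over the same 40 libraries.

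**Figure D5:**
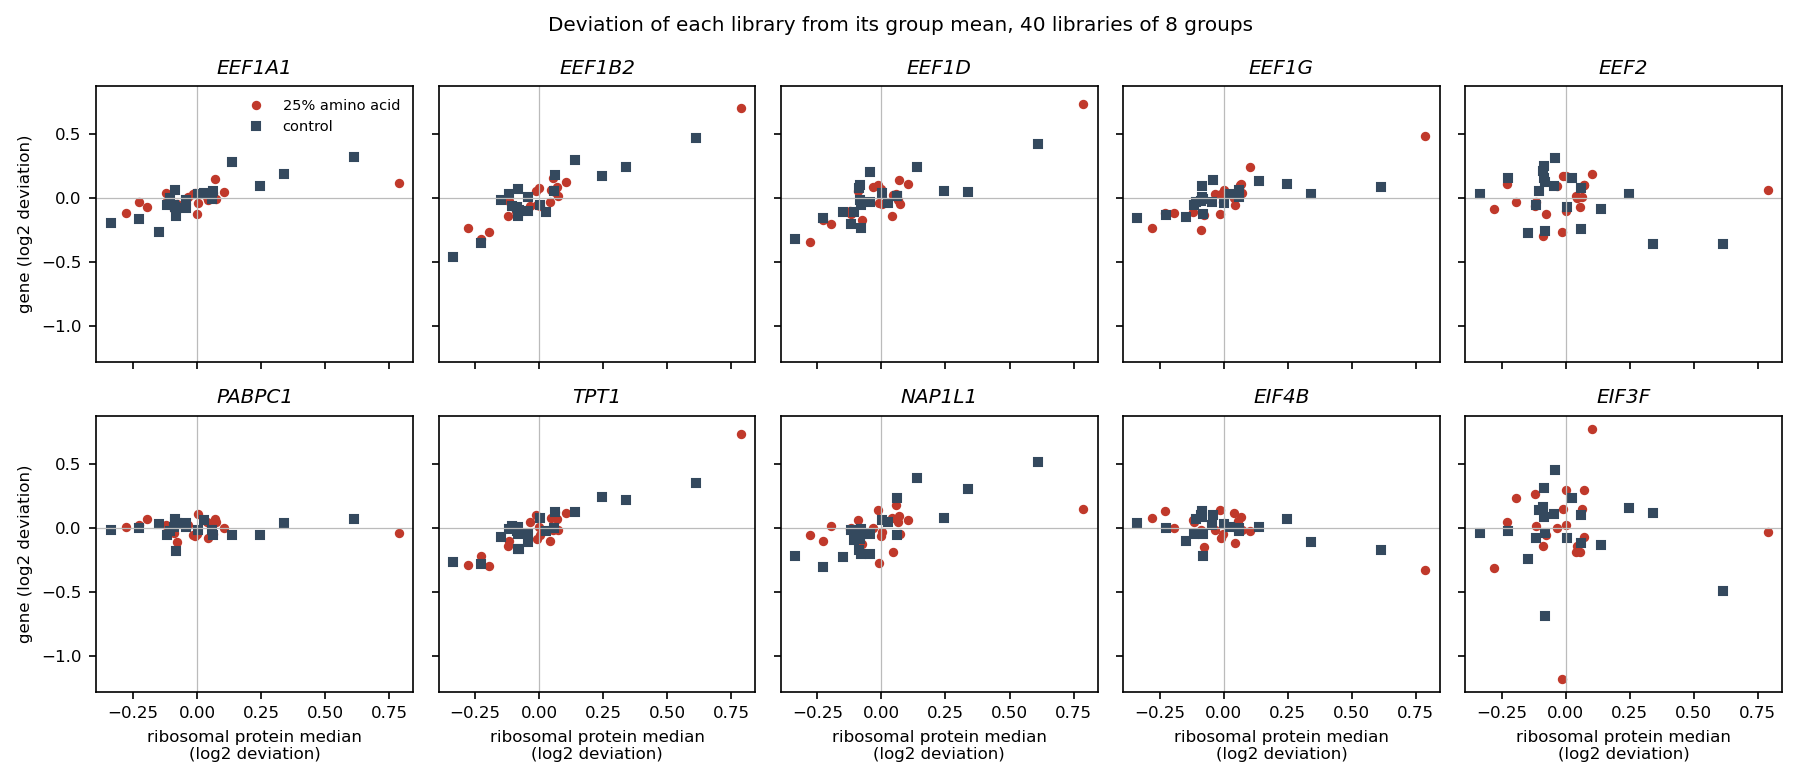
Deviation of each of the 10 genes from its group mean (vertical, log2) against the median deviation of ribosomal protein mRNA (horizontal, log2) in 40 libraries, with 25% amino acid libraries as red circles and controls as dark squares. EEF1B2 and TPT1 rise along the horizontal axis with r = 0.92, PABPC1 stays near 0 throughout, and the points furthest right are 25% phenylalanine 2 and phenylalanine control 1.

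Lists of other translation genes are given beside these values. Of 23 other initiation factors 11 rose and 3 fell with methionine, 1 rose and 3 fell with phenylalanine and 2 rose and 0 fell with valine, with median log2 fold changes of 0.23, 0.01 and 0.11. EIF2S1, a subunit of eIF2, rose to 2246 ± 127 in 25% methionine against 1369 ± 68.4 in controls (SD, n = 5 each; log2 fold change 0.71), while EIF2S3 of the same factor fell (log2 fold change -0.79). Of 10 other elongation and termination factors 6 rose and 2 fell with methionine, among them EEF1E1, a component of the multi-tRNA synthetase complex, at 1793 ± 123 in 25% methionine and 567 ± 43 in controls (SD, n = 5 each; log2 fold change 1.66, adjusted p = 1.25e-09 in limma). With tryptophan 19 of the 23 initiation factors fell and 0 rose, the helicase gene EIF4A1 to 7916 ± 584 in 25% tryptophan against 24816 ± 1727 in controls (SD, n = 5 each; log2 fold change -1.65). With histidine 8 rose and 4 fell. EIF1, whose protein guards start codon choice, was among those that rose (log2 fold change 0.84), and EIF4A2, a second eIF4A helicase, among those that fell (-0.75). With equal totals 15 initiation factors rose and 3 fell with methionine, 4 rose and 1 fell with phenylalanine, 4 rose and 0 fell with valine and 1 rose and 13 fell with tryptophan.

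Of the 12 other eIF3 subunits, 5 fell and 2 rose with methionine, 4 fell and 0 rose with phenylalanine, 3 fell and 0 rose with valine and 10 fell and 0 rose with tryptophan. EIF3E, itself described with a TOP start, fell to 2131 ± 169 in 25% methionine against 11041 ± 1297 in controls (SD, n = 5 each; log2 fold change -2.37), beside -2.41 for EIF3F. It also fell with valine (-1.50), tryptophan (-1.32), phenylalanine (-0.97) and leucine (-0.78, adjusted p = 0.00271 in limma). Of 12 other transcripts described with TOP starts, which include EIF3E, 10 fell with methionine, 9 with phenylalanine, 9 with tryptophan, 7 with valine, 7 with histidine, 4 with leucine and 0 with isoleucine, while 1 rose with histidine, phenylalanine, tryptophan and leucine each and 2 with valine. VIM, the intermediate filament gene, was among them, with log2 fold changes of -2.07 for methionine, -1.41 for valine and -1.21 for phenylalanine. Of 10 poly(A)-binding partners and relatives 2 rose and 4 fell with methionine, 3 rose and 2 fell with histidine, 2 rose and 2 fell with tryptophan, 0 rose and 2 fell with valine, 0 rose and 1 fell with phenylalanine, and 0 moved with leucine or isoleucine. Of all genes 27.8% rose and 25.4% fell with methionine, 15.6% and 12.3% with histidine, and 23.6% and 27.7% with tryptophan. With equal totals 5 of these 10 rose and 2 fell with tryptophan. Under that scaling 2 of the 12 TOP transcripts rose and 6 fell there, and 1 eIF3 subunit rose and 10 fell. PABPC4, a relative of PABPC1, fell with methionine (-1.14), valine (-0.79), phenylalanine (-0.63), histidine (-0.40) and tryptophan (-0.45), where PABPC1 had 0.27.

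Of 18 regulators of TOP mRNAs, 6 rose and 7 fell with methionine, 7 rose and 3 fell with histidine, 4 rose and 9 fell with tryptophan, and at most 3 moved in either direction in each of the other 4 comparisons. LARP1 rose with methionine, to 9884 ± 395 in 25% methionine against 6373 ± 497 in controls (SD, n = 5 each; log2 fold change 0.64, adjusted p = 1.98e-06 in limma), and with leucine (0.42, adjusted p = 0.032). EIF4EBP1, which encodes 4E-BP1, rose with tryptophan (0.85) and histidine (0.45) and fell with methionine (-0.64). EEF2K, the kinase that inactivates eEF2, fell with methionine, to 396 ± 31.9 against 799 ± 47.4 in controls (SD, n = 5 each; log2 fold change -1.01), with valine (-0.62) and with histidine (-0.37). RPS6KB1, the gene of S6 kinase 1, rose with methionine (0.42) and fell with tryptophan (-0.33). MYC, a transcription factor that drives ribosome production, fell to 3639 ± 563 in 25% tryptophan against 9088 ± 1118 in controls (SD, n = 5 each; log2 fold change -1.33), and fell with methionine (-0.94) and histidine (-0.64). It rose with leucine (0.67, adjusted p = 0.00526 in limma), and at 0.31 for valine it did not pass. With equal totals the calls of EEF2K for valine (-0.50, adjusted p = 0.105 in limma) and RPS6KB1 for tryptophan (-0.09, adjusted p = 0.31) were lost, MYC passed for valine (0.43, adjusted p = 0.0143), LARP1 (0.22, adjusted p = 0.00334) and EEF2K (0.37, adjusted p = 0.00109) passed for tryptophan, and 8 regulators rose and 4 fell with tryptophan. No relation between a regulator and the 10 genes was tested.

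Several of the 10 genes have processed pseudogenes that share their sequence, so their counts are uncertain to the extent that reads were divided. Summed pseudogene rows reached at most 5.43% of EIF3F in any library, where 1 or 2 rows carry such a name, and at most 1.27% of EEF1A1 in any histidine library, where 33 rows do. EEF2 had no such row. In the methionine table EEF1A1P5, the EEF1A1 pseudogene row with the highest mean, fell beside its parent, to 61.5 ± 17.9 in 25% methionine against 183 ± 77.5 in controls (SD, n = 5 each; log2 fold change -1.52, adjusted p = 0.000617 in limma).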

How the data were processed

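RNA-seq of Jurkat cells was deposited by the authors as 7 tables, 1 per amino acid. The values are normalised counts (a signal unit: estimated counts normalised by the authors within each table). Ratios between genes of the same BCAA control library differed slightly between tables, so the values were not divided by a single factor per library alone. The submitters' processing notes name kallisto 0.50.1, DESeq2 1.44.0, FastQC 0.11.9 and build GRCh38. The annotation release, and the use of strand in counting, were not given in the sources used here.

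Groups of the 59 libraries follow their labels, and the 10 genes were matched by symbol. The genes and all gene lists were chosen with earlier results of these data known. Genes with a mean of at least 10 in a table were tested on log2(value + 1) with limma 3.58.1 (R 4.3.3, lmFit and eBayes with trend) on 25% minus control, with Benjamini-Hochberg adjustment over all genes of the table, two-sided, and called at an adjusted p below 0.05. The pseudocount of 1 makes fold changes of low genes too small. A second fit used values relative to the summed mRNA of 79 ribosomal protein genes. The 28 log2 ratios were tested by exact permutation. Scripts were tested on simulated data.

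All 10 genes are named in the text. From each other list, at most the 2 genes with the smallest adjusted p in a comparison are named, together with LARP1, EIF4EBP1, EEF2K, RPS6KB1 and MYC, the pseudogenes with the highest mean, and the 5 genes whose deviations were most like those of the 10. Whole reads could not be recovered: at a tolerance of 0.1 read, 44.8% to 81.6% of low values were whole multiples, so depth is unknown and no counting intervals are given. Alternatives were pseudocounts of 0.25 and 5, testing all genes or those with a mean of 100 or more, scaling by the trimmed mean of M values (TMM), equal totals, a replicate block, the median of the ribosomal protein list, each library left out, and all libraries high in ribosomal protein mRNA left out. The scaling alternatives for the other gene lists, and the counts over all genes relative to ribosomal protein mRNA without the libraries high in it, were added after seeing the data. Sequences come from RefSeq's promoter table. Figures were drawn with matplotlib 3.10.9.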

Additional observations from a re-analysis of the deposited data

Results flagged for a closer look

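In groups of 4 or 5 libraries, the highest or lowest value stood far from the rest in 16 of 120 sets of 1 gene in 1 group (13.3%), where chance flags about 1 in 20. The BCAA controls were examined once, in the isoleucine table.

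Library 2 of 25% phenylalanine was high for EEF1B2 (8846, others 4356 to 5332), EEF1D (5581, others 2634 to 3113), EEF1G (33151, others 20099 to 23036) and TPT1 (73026, others 35896 to 40691), and low for EIF4B (8507, others 11045 to 11712), in normalised counts. Ribosomal protein mRNA was high in this library as well, and its part in these values was not tested. Phenylalanine control 1 was high for NAP1L1 (18566, others 11142 to 12800).

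BCAA control 1 was high for EEF1B2 (15236, others 8415 to 8969), EEF1D (10586, others 5131 to 5666), EEF1G (89093, others 48807 to 54424) and TPT1 (72935, others 35722 to 39282). It enters the isoleucine, leucine and valine comparisons alike.

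Of the remaining values, 25% isoleucine 4 was high for EEF1B2 (9832, others 8590 to 8908, rounded to whole counts) and EEF1D (5896, others 5164 to 5296). Library 2 of 25% leucine was high for EEF1D (5910.0, others 4051 to 4220). Library 2 of 25% tryptophan was low for EEF1G (26835, others 32761 to 34371). Histidine control 1 was low for PABPC1 (33819, others 38716 to 40313) and EIF3F (1057, others 1817 to 2122).

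PABPC1 went in opposite directions without overlap, with a log2 fold change of 0.27 for tryptophan, against -0.98 for methionine, -0.44 for phenylalanine and -0.65 for valine. The difference between amino acids was not tested.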

How the results depend on the processing

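The counts of 10 genes lower for methionine, 9 for phenylalanine, 9 for valine and 4 for tryptophan stayed within 1.5 times under all alternatives run, and isoleucine stayed at 0. With equal totals, 1 gene was higher for histidine and 5 for tryptophan, where EEF2 turned to 0.042, and TPT1 turned to 0.052 for phenylalanine. For leucine 0 genes were lower with a pseudocount of 5, no filter or TMM scaling, and 2 without libraries high in ribosomal protein mRNA. Without those libraries EEF1B2 (0.042), TPT1 (0.092) and NAP1L1 (0.063) turned positive for isoleucine and TPT1 (0.16) for leucine. Relative to ribosomal protein mRNA, 1 gene was lower for histidine with a pseudocount of 0.25 and 0 with the median of the list. Without the same libraries 8 were lower and 2 higher for phenylalanine, 1 higher for leucine and 8 lower for valine. The cause was not tested.

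Deviations of libraries with the same number correlated weakly (from -0.19 to 0.19). This does not show that the numbers pair libraries, and with so few pairs it cannot exclude it. The replicate block left 10 genes lower for methionine, 9 for valine, 8 for phenylalanine, and 4 each for tryptophan and histidine. For leucine 1 gene was lower under it, EIF3F (-0.69, adjusted p = 0.0171 in limma), and the call of EEF2 was lost (-0.61, adjusted p = 0.0822). Relative to ribosomal protein mRNA the block left 1 lower for histidine and 0 lower and 0 higher for phenylalanine. TPT1 for valine was -0.000286. All genes called under the block were 803 for phenylalanine (1736 without it), 775 for leucine (1277 without it) and 3059 for valine (2096 without it). The 4 valine correlations were 0.036 to 0.19. No BCAA control is numbered 2, so under the block restricted library 2 does not enter the isoleucine, leucine and valine differences. Leaving out 25% valine 2 without a block gave 2595 called genes for valine, and leaving out 25% leucine 2 gave 1329 for leucine.

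With each library left out in turn, genes lower for leucine ranged from 0 to 2 and genes higher for histidine from 0 to 1. Relative to ribosomal protein mRNA the ranges were 0 to 3 lower and 1 to 3 higher for histidine, 2 to 3 higher for methionine, 1 to 6 lower for phenylalanine, 0 to 1 higher for leucine and 3 to 5 lower for valine. Log2 fold changes that crossed 0 ranged from -0.026 to 0.045 (PABPC1, histidine), -0.25 to 0.023 (TPT1, phenylalanine), -0.035 to 0.051 (EEF1B2, tryptophan), -0.043 to 0.14 (EEF1A1, isoleucine), -0.24 to 0.042 (EEF1B2, isoleucine), -0.25 to 0.092 (TPT1, isoleucine), -0.14 to 0.063 (NAP1L1, isoleucine), -0.18 to 0.16 (TPT1, leucine) and -0.051 to 0.30 (TPT1, valine). Ratios that crossed 0 were EEF1D to EEF1B2 for phenylalanine (-0.031 to 0.076) and EEF1D to EEF1G for isoleucine (-0.058 to 0.018) and leucine (-0.083 to 0.010). Read depth is unknown and limits the low values most.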
